A study of Saccharomyces cerevisiae with 16 samples.

Results

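INO1, OPI3, CHO1, CHO2, PSD1, ITR1, ACC1, FAS1, FAS2 and OLE1 are genes of inositol, phospholipid and fatty acid synthesis in budding yeast (Saccharomyces cerevisiae). They were chosen by gene symbol, with earlier results of these data known, and all 10 were found among the 5315 named genes of the arrays. Shares of this set and of the other gene lists, given below beside those of all genes, are therefore descriptions and not tests. Newly made RNA was measured in 2 strains before rapamycin and at 10, 20 and 30 min after it was added, with 2 arrays in each of 8 groups. The strain called WT-aa is By4742-aa, a MATalpha strain that is MET15 and carries leu2, his3-1, ura3 and lys2. It also carries tor1-1, a deletion of FPR1 (fpr1del) and the anchor RPL13A-FKBP12-NAT. The strain called Mot1-aa adds Mot1-FRB-yEGFP-3V5. Mot1 is an ATPase that takes the TATA-binding protein off DNA, and in this anchor-away system rapamycin ties the tagged protein to the ribosomal protein Rpl13A, which leaves the nucleus. The groups are WT-aa and Mot1-aa at 0 min, without rapamycin, and at 10, 20 and 30 min in 7.5 µM rapamycin. All were in SC medium with 2% glucose. During the last 6 min all of them received 5 mM 4-thiouracil (4tU), which cells build into RNA in place of uracil. The Mot1-aa strain carries its tag at 0 min too, and the level of Mot1 protein in the nucleus was not analysed here.

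Inositol and fatty acids are the building blocks of yeast membranes. The activator pair Ino2 and Ino4 binds a shared promoter element of many phospholipid genes, INO1 above all, and the repressor Opi1 acts through Ino2. Opi1 is held at the endoplasmic reticulum by phosphatidic acid and Scs2, and it enters the nucleus when inositol is plentiful. OLE1, the only fatty acid desaturase gene of this yeast, is switched on by Mga2 and Spt23, membrane proteins that are released when membranes hold too little unsaturated fat.

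Each value below is a log2 ratio of the sample over a common reference, which was 4tU RNA pooled from 3 WT-aa cultures without rapamycin. A value of 0 means the same level as in the reference, relative to the other genes of the array. The sample was labelled with Cy3 in culture 1 and with Cy5 in culture 2 of every group. The median gene signal was 12.0 times the background on the dimmest array (Mot1-aa 0 min culture 1), 22.2 times on the next and 32.2 times on the brightest. The external control spots, used below as another way to scale the arrays, had a median of only 1.15 to 1.50 times the background. INO1 was the dimmest of the 10 genes, at 3.02 to 10.7 times the background, and the highest value of the set was 562 times. All 160 values of the 10 genes lay above the 99th percentile of the quality control spots of their array, and no spot was saturated. Duplicate spots had a median SD of 0.021 and a largest SD of 0.12 on the log2 scale. In a culture, fewer cells that make a transcript and less of it per cell cannot be told apart.

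After rapamycin, 9 of the 10 genes rose in Mot1-aa by 30 min, led by OLE1 and INO1, and 22.9% of all genes were called higher in that comparison. CHO2, which makes the first methyl transfer from phosphatidylethanolamine towards phosphatidylcholine, was the one that did not pass the test. In WT-aa, 0 of the 10 genes passed it at 10, 20 or 30 min, and neither did most others, with 0.414%, 0.113% and 0.395% of all genes called. The depletion effect sets the strains against each other: it is how far a gene moved from its 0 min level in Mot1-aa, less how far it moved in WT-aa. At 30 min it was above 0 and past the threshold for 6 of 10 genes (OLE1, INO1, ACC1, PSD1, ITR1 and FAS2), against 13.6% of all genes. The threshold throughout is an adjusted p under 0.05, from limma with Benjamini-Hochberg adjustment over all 5315 genes.

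**Figure D1:**
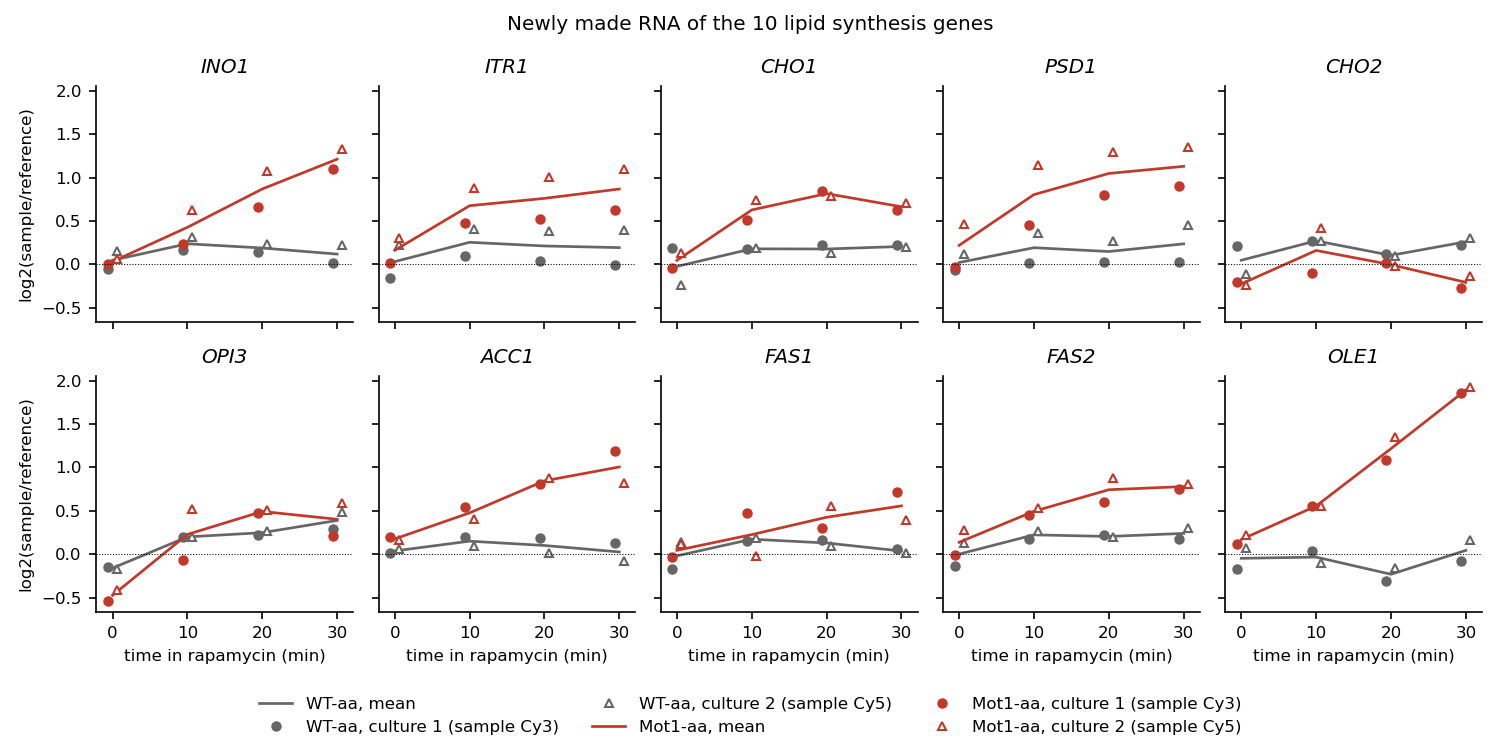
Log2 ratio of sample over reference (vertical axis) against minutes in rapamycin (horizontal axis) for each of the 10 genes, with 1 point per array and lines through the means of both cultures. OLE1 reached 1.85 and 1.93 in Mot1-aa at 30 min, while the CHO2 values of Mot1-aa at that time, -0.28 and -0.14, lay below those of WT-aa. CHO2 in Mot1-aa was already at -0.21 and -0.24 at 0 min.

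INO1 (YJL153C) encodes inositol-phosphate synthase, which makes inositol from glucose phosphate. In WT-aa its log2 ratio was -0.06 in culture 1 and 0.15 in culture 2 at 0 min, 0.16 and 0.31 at 10 min, 0.15 and 0.23 at 20 min, and 0.01 and 0.22 at 30 min. In Mot1-aa it was 0.01 and 0.06 at 0 min, 0.23 and 0.62 at 10 min, 0.66 and 1.08 at 20 min, and 1.09 and 1.33 at 30 min. Both cultures of Mot1-aa were above every WT-aa array at 20 and 30 min, and at 10 min the strains overlapped. The means of Mot1-aa at 30 and 20 min differed from the next lower mean by more than the SD of either group. The other 5 neighbours in the order of the levels, including Mot1-aa at 10 min and WT-aa at 10 min, did not. INO1 rose in Mot1-aa by 0.84 at 20 min (SE 0.09, adjusted p 0.00013) and by 1.18 at 30 min, which is 2.26-fold (SE 0.09, adjusted p 6.93e-06). In WT-aa the change at 30 min was 0.07 (SE 0.09, adjusted p 0.839).

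The depletion effect of INO1 was 0.70 at 20 min (SE 0.13, adjusted p 0.011) and 1.11 at 30 min, or 2.16-fold (SE 0.13, adjusted p 4.13e-04). Culture 1 gave 1.02 and culture 2 gave 1.20 at 30 min. This gene ranked 86th from the top of all 5315 by that difference. The call at 20 min was lost without culture 2 of either strain at that time (highest adjusted p 0.0738), with median centring (0.247), without the dye term (0.162) and when arrays were scaled on the external controls (0.103). Because INO1 is dim, the offset of the background correction moved its size: with an offset of 0, chosen after its low signal was seen, the effect at 30 min was 1.32.

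ITR1 (YDR497C) encodes the main inositol transporter of the plasma membrane. Its log2 ratios in WT-aa were -0.16 and 0.22 at 0 min, 0.10 and 0.41 at 10 min, 0.04 and 0.39 at 20 min, and -0.01 and 0.39 at 30 min. The Mot1-aa values were 0.02 and 0.31 at 0 min, 0.47 and 0.88 at 10 min, 0.52 and 1.00 at 20 min, and 0.63 and 1.10 at 30 min. Culture 2 was above culture 1 in all 8 groups, by 0.29 to 0.48, a difference that the dye term of the fit takes out. Within each culture the Mot1-aa arrays at 10, 20 and 30 min were the highest. ITR1 rose in Mot1-aa by 0.51 at 10 min (SE 0.07, adjusted p 0.00237) and by 0.71 at 30 min (SE 0.07, adjusted p 2.01e-05). The change at 30 min in WT-aa was 0.16 (SE 0.07, adjusted p 0.525).

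The ITR1 depletion effect at 30 min came to 0.54, or 1.46-fold (SE 0.09, adjusted p 0.00316), with 0.47 in culture 1 and 0.62 in culture 2. Without the dye term, its adjusted p at 30 min was 0.353. At 20 min the effect was 0.42 (SE 0.09, adjusted p 0.0236). That call was lost without culture 2 of Mot1-aa at 0 or 20 min, or any WT-aa array at 0 or 20 min (highest adjusted p 0.127). Mot1-aa at 10 min was the only group whose mean stood above the next lower one, WT-aa at 10 min, by more than the SD of either group.

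CHO1 (YER026C) encodes phosphatidylserine synthase, the entry step from CDP-diacylglycerol to phosphatidylserine. In WT-aa its values were 0.19 and -0.24 at 0 min, 0.18 and 0.18 at 10 min, 0.22 and 0.13 at 20 min, and 0.22 and 0.19 at 30 min. In Mot1-aa they were -0.04 and 0.14 at 0 min, 0.51 and 0.74 at 10 min, 0.85 and 0.78 at 20 min, and 0.63 and 0.70 at 30 min. The highest mean was at 20 min rather than 30 min, and all 6 Mot1-aa arrays with rapamycin lay above all 8 WT-aa arrays. CHO1 rose in Mot1-aa by 0.77 at 20 min (SE 0.13, adjusted p 0.00159) and by 0.62 at 30 min (SE 0.13, adjusted p 0.00321). The depletion effect was 0.57 at 20 min (SE 0.18, adjusted p 0.0906) and 0.39 at 30 min (SE 0.18, adjusted p 0.155, 95% interval -0.01 to 0.79). The WT-aa cultures at 0 min stood 0.43 apart. The 30 min effect was 0.63 without culture 2 of that group and 0.15 without its culture 1. The authors' log2 ratios called CHO1 at 20 min (0.56, adjusted p 0.0315) and at 30 min (0.49, adjusted p 0.0275). At 20 min it was also called with array weights (adjusted p 0.0179), and the effect ran from 0.33 to 0.81 with each array left out in turn. CHO1 stayed below the threshold for a call in 19 of 24 settings at 20 min and in 22 of 24 at 30 min.

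PSD1 (YNL169C) encodes the mitochondrial phosphatidylserine decarboxylase, which turns phosphatidylserine into phosphatidylethanolamine. The WT-aa values were -0.07 and 0.11 at 0 min, 0.02 and 0.36 at 10 min, 0.02 and 0.27 at 20 min, and 0.02 and 0.45 at 30 min. Those of Mot1-aa were -0.03 and 0.47 at 0 min, 0.46 and 1.15 at 10 min, 0.80 and 1.29 at 20 min, and 0.90 and 1.36 at 30 min. As with ITR1, culture 2 was above culture 1 in every group, and Mot1-aa with rapamycin was the highest within each culture. PSD1 rose in Mot1-aa by 0.91 at 30 min (SE 0.11, adjusted p 8.51e-05). Its depletion effect at 30 min was 0.70, or 1.62-fold (SE 0.15, adjusted p 0.00936), with 0.84 in culture 1 and 0.55 in culture 2. The authors' own log2 ratios gave 0.46 with an adjusted p of 0.181, and the fit without the dye term gave an adjusted p of 0.285. At 20 min the effect was 0.70 (SE 0.15, adjusted p 0.019), and the call was lost without culture 1 of either strain at 0 min or culture 2 of either strain at 20 min (highest adjusted p 0.111).

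CHO2 (YGR157W) and OPI3 (YJR073C) encode the methyltransferases that turn phosphatidylethanolamine into phosphatidylcholine. The CHO2 values in WT-aa were 0.21 and -0.11 at 0 min, 0.27 and 0.27 at 10 min, 0.12 and 0.09 at 20 min, and 0.22 and 0.30 at 30 min. In Mot1-aa they were -0.21 and -0.24 at 0 min, -0.10 and 0.42 at 10 min, 0.01 and -0.02 at 20 min, and -0.28 and -0.14 at 30 min. CHO2 in Mot1-aa was thus as low at 30 min as at 0 min, and its change was 0.02 (SE 0.15, adjusted p 0.934, 95% interval -0.31 to 0.34). The depletion effect at 30 min came to -0.19 (SE 0.21, adjusted p 0.536), and its 95% interval of -0.66 to 0.27 leaves out the size seen for INO1. The effect was 0.21 when the arrays were scaled on the external control spots, where the median of all genes was 0.27. Its difference from that median was -0.06. A direction is not given, since the 95% interval of the main fit holds values of either sign.

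Of the members, OPI3 had the largest differences from 0 min in WT-aa, and none passed the test. Its WT-aa values were -0.15 and -0.17 at 0 min, 0.20 and 0.21 at 10 min, 0.23 and 0.27 at 20 min, and 0.29 and 0.49 at 30 min. In Mot1-aa they were -0.54 and -0.41 at 0 min, -0.06 and 0.52 at 10 min, 0.47 and 0.51 at 20 min, and 0.21 and 0.59 at 30 min. Both strains were lowest at 0 min, and the 30 min arrays of the strains overlapped. The WT-aa change at 30 min was 0.55 (SE 0.13, adjusted p 0.197). It passed the threshold without either Mot1-aa 10 min array (lowest adjusted p 0.0102). The Mot1-aa change was 0.97 at 20 min (SE 0.13, adjusted p 4.88e-04) and 0.88 at 30 min (SE 0.13, adjusted p 4.59e-04). The depletion effect was 0.56 at 20 min (SE 0.19, adjusted p 0.109, 95% interval 0.14 to 0.97). It was called there with array weights (adjusted p 0.0242), and stayed without a call in 21 of 24 settings. At 30 min the effect was 0.33 (SE 0.19, adjusted p 0.239, 95% interval -0.09 to 0.74). In the main fit a difference between the strains did not pass the threshold at either time.

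ACC1 (YNR016C) encodes acetyl-CoA carboxylase, which makes the malonyl-CoA that fatty acid synthase extends. In WT-aa its values were 0.01 and 0.07 at 0 min, 0.20 and 0.10 at 10 min, 0.18 and 0.02 at 20 min, and 0.14 and -0.08 at 30 min. In Mot1-aa they were 0.20 and 0.16 at 0 min, 0.55 and 0.41 at 10 min, 0.81 and 0.88 at 20 min, and 1.19 and 0.83 at 30 min. All 6 Mot1-aa arrays with rapamycin lay above the highest WT-aa array. ACC1 rose in Mot1-aa by 0.67 at 20 min (SE 0.10, adjusted p 7.59e-04) and by 0.83 at 30 min (SE 0.10, adjusted p 9.85e-05). Its depletion effect was 0.61 at 20 min (SE 0.14, adjusted p 0.0258) and 0.84 at 30 min, or 1.79-fold (SE 0.14, adjusted p 0.00265), with 0.87 in culture 1 and 0.81 in culture 2. The 20 min call was lost when either WT-aa array of that time was left out, and also without culture 2 of Mot1-aa at 20 min or of WT-aa at 0 min, or culture 1 of Mot1-aa at 0 min (highest adjusted p 0.131).

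FAS1 (YKL182W) and FAS2 (YPL231W) encode the beta and alpha subunits of fatty acid synthase. FAS2 values in WT-aa were -0.13 and 0.13 at 0 min, 0.18 and 0.27 at 10 min, 0.22 and 0.19 at 20 min, and 0.18 and 0.30 at 30 min. In Mot1-aa they were -0.01 and 0.28 at 0 min, 0.46 and 0.53 at 10 min, 0.61 and 0.88 at 20 min, and 0.75 and 0.81 at 30 min. The Mot1-aa arrays with rapamycin were all above the WT-aa arrays. FAS2 rose in Mot1-aa by 0.64 at 30 min (SE 0.09, adjusted p 2.23e-04), and the WT-aa change was 0.24 (SE 0.09, adjusted p 0.437). The depletion effect at 30 min was 0.40, or 1.32-fold (SE 0.12, adjusted p 0.04). This call was close to the threshold: it was lost without any array at 30 min, either WT-aa array at 10 min, culture 1 of Mot1-aa at 0 min or culture 2 of WT-aa at 0 min (highest adjusted p 0.15), and in 6 other settings.

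FAS1 varied more between cultures. Its WT-aa values were -0.17 and 0.14 at 0 min, 0.16 and 0.19 at 10 min, 0.16 and 0.10 at 20 min, and 0.06 and 0.01 at 30 min. Its Mot1-aa values were -0.03 and 0.12 at 0 min, 0.48 and -0.02 at 10 min, 0.30 and 0.55 at 20 min, and 0.72 and 0.40 at 30 min. At 10 min the Mot1-aa cultures lay on either side of WT-aa, and at 20 and 30 min both were above it. FAS1 rose in Mot1-aa by 0.51 at 30 min (SE 0.17, adjusted p 0.0314), and this call was lost without either array of Mot1-aa at 0 min or culture 1 at 30 min (highest adjusted p 0.259). The depletion effect of 0.46 at 30 min did not pass the test (SE 0.24, adjusted p 0.195, 95% interval -0.07 to 0.98). The interval holds the value of 0.40 found for FAS2, and the difference between the subunits was not tested.

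OLE1 (YGL055W) encodes the desaturase that puts the first double bond into palmitic and stearic acid. In WT-aa its values were -0.17 and 0.07 at 0 min, 0.04 and -0.11 at 10 min, -0.31 and -0.15 at 20 min, and -0.07 and 0.16 at 30 min. In Mot1-aa they were 0.12 and 0.22 at 0 min, 0.56 and 0.56 at 10 min, 1.09 and 1.35 at 20 min, and 1.85 and 1.93 at 30 min. Each later Mot1-aa time was above the one before in both cultures, with no overlap, and each of those steps in the means exceeded the SD of either group. The 4 WT-aa groups lay at the bottom of the order, and of their means only that at 20 min stood apart from its neighbour by more than the SD. The range of the 8 means, 2.12, ranked 33rd of the 5315 genes.

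OLE1 rose in Mot1-aa by 1.05 at 20 min, or 2.07-fold (SE 0.10, adjusted p 4.03e-05), and by 1.72 at 30 min, or 3.30-fold (SE 0.10, adjusted p 8.85e-07). The WT-aa change at 30 min was 0.09 (SE 0.10, adjusted p 0.8). The depletion effect was 1.23 at 20 min (SE 0.14, adjusted p 0.00115) and 1.63 at 30 min, or 3.10-fold (SE 0.14, adjusted p 6.13e-05). Culture 1 gave 1.64 and culture 2 gave 1.62 at 30 min. By size this gene ranked 8th from the top at 20 min and 16th at 30 min.

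Between 20 and 30 min in Mot1-aa, a comparison added after the values were seen, OLE1 rose further, by 0.68 (SE 0.10, adjusted p 0.0302). It was 1 of 7 genes called, which is 0.132% of those tested. Another was FAA2, a fatty acyl-CoA synthetase gene, with 0.50 (SE 0.07, adjusted p 0.0278). The INO1 value was 0.34 (SE 0.09, adjusted p 0.246), and the remaining 8 members lay between -0.20 and 0.16. The OLE1 call was lost without any array of either strain at 20 or 30 min and without either Mot1-aa 0 min array (highest adjusted p 0.45).

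**Figure D2:**
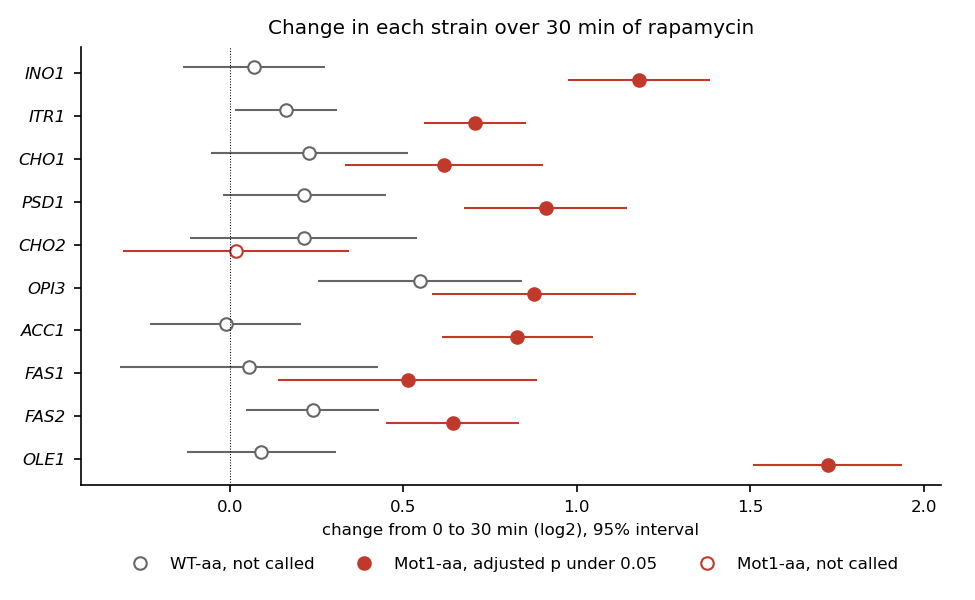
Change from 0 to 30 min (log2, horizontal axis) for each gene in WT-aa (grey) and Mot1-aa (red), with 95% intervals from the limma fit. Filled points passed the threshold: 9 of 10 in Mot1-aa and 0 of 10 in WT-aa, where OPI3 had the largest change, 0.55.

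Counted over the set, 5 of 10 members rose in Mot1-aa at 10 min, against 3.07% of all genes called higher. These were ITR1, PSD1 (0.58), OPI3 (0.70), CHO1 (0.58) and INO1 (0.39). The count was 1 without either Mot1-aa 0 min array, and between 3 and 7 without any other array. ITR1 kept its call without any 1 array, but lost it without the dye term (adjusted p 0.568), when arrays were weighted (0.372) and when they were scaled on the external controls (0.0993). Across all genes the changes at 10 min in the Mot1-aa cultures correlated at -0.0583. OPI3 and PSD1 lost theirs without either Mot1-aa 0 min array, and INO1 and CHO1 each without 13 of the 16 arrays (highest adjusted p 0.327). FAS2 (adjusted p 0.0502) and OLE1 (adjusted p 0.0556) just missed the threshold.

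At 20 min 8 of 10 members rose in Mot1-aa, against 16.4% of all genes, and at 30 min 9 of 10, against 22.9%. The median change of the members was 0.39, 0.72 and 0.77 at 10, 20 and 30 min, beside 0.00, 0.00 and 0.01 for all genes. In WT-aa 3 of 10 members had an unadjusted p under 0.05 at each time, against 7.51%, 4.57% and 8.67% of all genes. The WT-aa medians of the members were 0.20, 0.14 and 0.19, all above the all-gene medians of 0.00.

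Before rapamycin, 0 of 10 members differed between the strains, while 2.69% of all genes did. The differences of Mot1-aa from WT-aa ran from -0.31 for OPI3 (SE 0.13, adjusted p 0.305) to 0.22 for OLE1 (SE 0.10, adjusted p 0.331). CHO2 was the other low value, at -0.27, and INO1 was at -0.02. The depletion effects are differences from these starting points. Here 2 of 10 members (OPI3 and OLE1) had an unadjusted p under 0.05, against 14.6% of all genes.

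The depletion effect called 0 of 10 members at 10 min, and 0% of all genes. The smallest adjusted p over all genes there was 0.111, and 225 genes (4.23%), 3 of them members (ITR1, PSD1 and OLE1), had an unadjusted p under 0.05. The effect at 10 min was above 0 for 9 of 10 members. Mot1-aa at 10 min was the least reproducible group: its arrays had the lowest array weight, 0.148, and the next lowest was 0.605. At 20 min 5 of 10 members were called higher, against 7.06% of all genes, and at 30 min 6 of 10, against 13.6%. At both times 0 of 10 were called lower, against 1.03% and 7.51% of all genes. The median over the members was 0.25, 0.56 and 0.50 at 10, 20 and 30 min, beside 0.00, 0.01 and 0.01 for all genes. The count at 20 min fell to 1 without culture 2 of either strain at that time, was 3 without culture 1 of either strain at 0 min or of WT-aa at 20 min, and was 8 without either Mot1-aa 10 min array. At 20 min PSD1, ITR1 and ACC1 were also lost without the dye term (adjusted p 0.517, 0.763 and 0.111) and with the authors' ratios (0.239, 0.055 and 0.0745).

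Across all genes, which are not independent replicates, the correlation of the depletion effect between culture 1 and culture 2 was -0.119 at 10 min, 0.513 at 20 min and 0.718 at 30 min. When arrays were scaled on the external control spots in place of loess, the median depletion effect of all genes moved to 0.54, 0.54 and 0.27 at 10, 20 and 30 min. With that scaling the effect at 30 min was 1.99 for OLE1 and 1.36 for INO1, with limma adjusted p of 0.054 and 0.0548. These effects lay 1.72 and 1.08 above the median of all genes, and that excess was not tested.

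**Figure D3:**
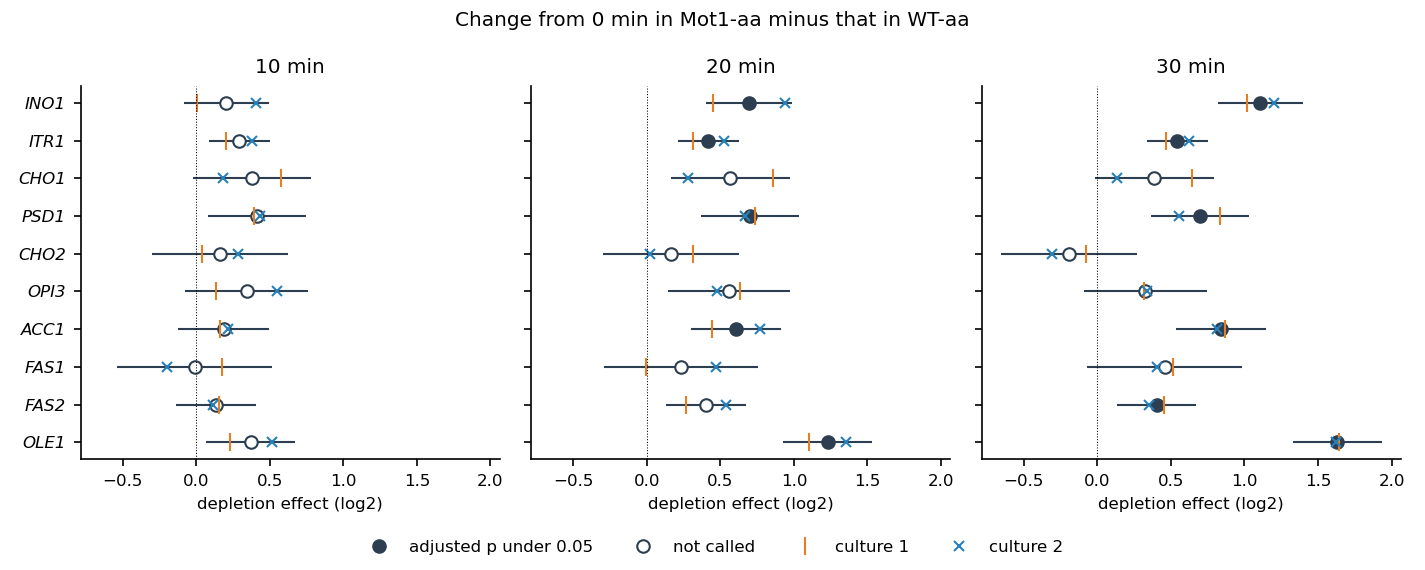
Depletion effect (log2, horizontal axis) of each gene at 10, 20 and 30 min, with 95% intervals, filled points for an adjusted p under 0.05 and separate marks for both cultures. The number of filled points is 0, 5 and 6, and OLE1 is the farthest to the right at 20 and 30 min, at 1.23 and 1.63.

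Of the 6 regulators of these genes, 1 (16.7%) was called higher and 1 lower at 30 min, near the 13.6% and 7.51% of all genes given above. MGA2 (YIR033W), the membrane-bound activator of OLE1, had a depletion effect of 0.48 (SE 0.14, adjusted p 0.0392). Its Mot1-aa values were -0.28 and -0.21 at 0 min and 0.30 and 0.14 at 30 min, and its WT-aa values were 0.01 and -0.08, then 0.08 and -0.17. SCS2 (YER120W), the membrane anchor of Opi1, fell, with a depletion effect of -0.57 (SE 0.17, adjusted p 0.0391). SCS2 went from -0.31 and 0.03 to -0.77 and -0.33 in Mot1-aa, and from -0.22 and 0.04 to -0.19 and 0.33 in WT-aa. Both calls were lost without any array at 30 min, without either WT-aa array at 0 or 20 min and without Mot1-aa 0 min culture 1. The MGA2 call was also lost without either WT-aa 10 min array, and the SCS2 call without Mot1-aa 0 min culture 2 (highest adjusted p 0.155 and 0.162).

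The genes for the Ino2 and Ino4 activator and for the Opi1 repressor did not pass the test. Their depletion effects at 30 min were 0.32 for INO2 (SE 0.38, adjusted p 0.574), 0.00 for INO4 (SE 0.18, adjusted p 0.989) and 0.38 for OPI1 (SE 0.23, adjusted p 0.263). INO2 was the least precise of the regulators, with Mot1-aa 10 min cultures at 0.40 and -0.88. SPT23, the paralog of MGA2, had -0.13 (SE 0.15, adjusted p 0.575). These values are for new RNA of the regulators and hold nothing on their proteins.

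Of 22 phospholipid genes outside the 10 members, 1 (4.55%) was called higher and 0 lower at 30 min, against 13.6% and 7.51% of all genes, with a median depletion effect of 0.03. It was DGK1, the diacylglycerol kinase that makes phosphatidic acid, at 0.58 (SE 0.15, adjusted p 0.0235). Its call was lost without any array at 30 min, either Mot1-aa array at 0 min or culture 2 of WT-aa at 0 min (highest adjusted p 0.0994).

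Of 16 measured genes that activate, elongate and supply fatty acids, 6 (37.5%) were called higher and 1 (6.25%) lower, against 13.6% and 7.51% of all genes, with a median of 0.32. FAA2 rose from -0.04 and 0.08 at 0 min to 1.51 and 1.51 at 30 min in Mot1-aa, and its WT-aa values were -0.10 and -0.20, then -0.05 and 0.03. That gave a depletion effect of 1.34 (SE 0.10, adjusted p 3.22e-05). ACS2, the nuclear and cytosolic acetyl-CoA synthetase, had 1.11 (SE 0.30, adjusted p 0.0268), and ELO1, a fatty acid elongase, had 0.94 (SE 0.14, adjusted p 0.00143). FAT1, a fatty acid transporter and very long chain acyl-CoA synthetase, had 0.82 (SE 0.19, adjusted p 0.0136). The ACS2 call was lost without the same 7 arrays as that of DGK1 (highest adjusted p 0.108), and the FAT1 call without culture 1 of Mot1-aa at 30 min, culture 2 of either strain at 0 min or culture 2 of WT-aa at 30 min (0.0634). The other rises were ACB1, an acyl-CoA binding protein, at 0.41, and FAA4, another acyl-CoA synthetase, at 0.40, which at 0 min already stood 0.41 above its WT-aa level in Mot1-aa (adjusted p 0.0319). Whether the ACB1 and FAA4 calls hold with arrays left out or under the other settings was not tested.

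HFA1, the mitochondrial paralog of ACC1, was the fall in that list, at -0.36 (SE 0.11, adjusted p 0.0396), opposite to ACC1. The probes are not given here, so hybridisation across the ACC1 and HFA1 pair was not tested. The HFA1 call was lost without 12 of the 16 arrays (highest adjusted p 0.144). Of 7 storage lipid genes, 1 rose and 1 fell (14.3% each), near the 13.6% and 7.51% of all genes, with a median of 0.20. Both are triacylglycerol lipase genes: TGL5 had 0.60 (SE 0.17, adjusted p 0.0314) and TGL3 had -0.47 (SE 0.14, adjusted p 0.0388). Their calls were lost without 9 and 13 of the 16 arrays, with highest adjusted p of 0.122 and 0.135.

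**Figure D4:**
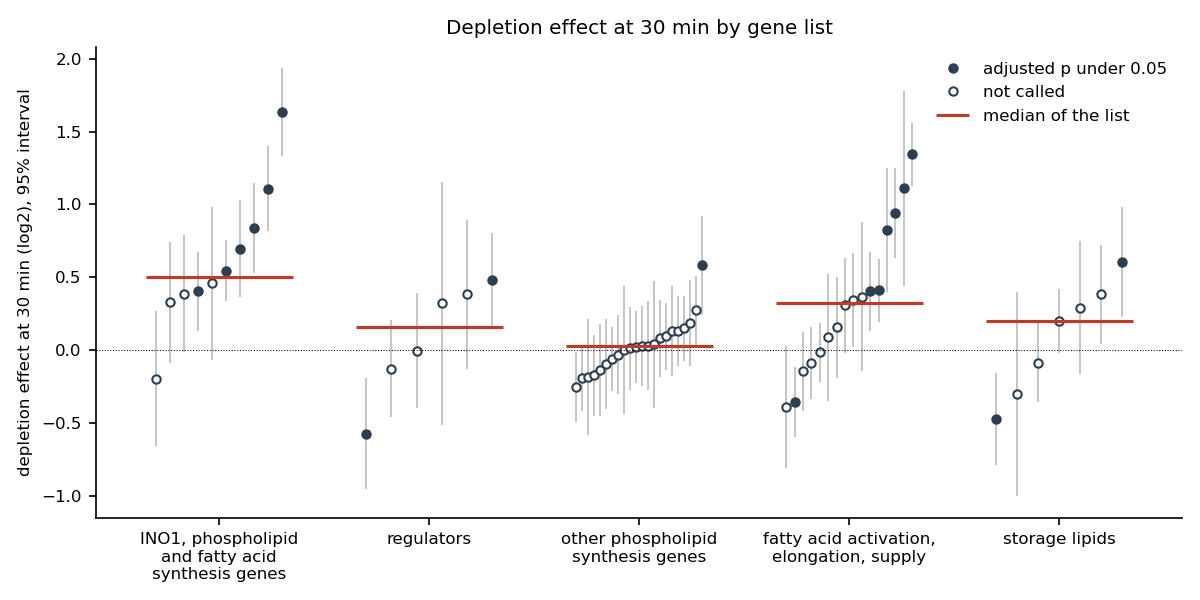
Depletion effect at 30 min (log2, vertical axis) of every measured gene in the 5 lists, ordered by size within each list, with 95% intervals, filled points for an adjusted p under 0.05 and a red line at the median. The medians are 0.50 for the 10 members, 0.16 for the regulators, 0.03 for the other phospholipid genes, 0.32 for the fatty acid list and 0.20 for storage lipids.

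Among the members themselves, the 8 group means moved together in most pairs. These correlations are a description over 8 groups that share the same arrays and reference. The highest was between PSD1 and ITR1 (r = 0.989), followed by INO1 and FAS1 (r = 0.986). CHO2 had a negative r with 8 of the other 9, from -0.161 with CHO1 to -0.557 with OLE1. Its r with OPI3 was positive (0.379). No change of CHO2 passed the threshold in the main fit, so an opposite pattern is not claimed. OPI3 correlated with the others, CHO2 left aside, at 0.46 to 0.70.

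For INO1, ITR1 and OLE1, the genes of most similar pattern were taken by r over the same 8 means, among genes whose means spanned no less than 0.5 of the member's range. For INO1 these were PRM1 (r = 0.995), MAF1 (r = 0.993) and CBT1 (r = 0.993), of 1268 genes compared. The OLE1 pattern was closest to DIA2 (r = 0.998), FAA2 (r = 0.995) and GYP7 (r = 0.993), of 334 genes. Nearest to ITR1 were NDI1 (r = 0.992), GAT1 (r = 0.992) and the member PSD1, of 2282 genes.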

How the data were processed

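The authors deposited scanner output with linear intensity values, which per the file headers are the mean of each spot and the median of the background around it, for both dyes. The authors' series table holds log2 ratios of Cy5 over Cy3, which served as an alternative, with a normalization not given in the sources used here. With limma 3.58.1 in R 4.3.3, spot means were background-corrected (normexp, offset 50), normalized within each array by loess over the gene spots, turned to sample over reference by the dye of each sample's labels, and averaged over duplicate spots and probes of a gene. The design text gives the opposite order of the dyes from the sample labels, which were followed. The sign of every log2 ratio, that of the authors' ratios included, rests on this choice. All 16 arrays entered 1 linear model with 8 groups and a dye term, fitted by lmFit and eBayes, and p-values were adjusted over 5315 genes (Benjamini-Hochberg). Since the dyes follow the culture number, the dye term is also the replicate block. The deviations from the group means of same-numbered cultures correlated with a median r of 0.62 over 28 pairs of groups (lowest -0.36). Per the design text the cultures of a group are independent. The labels do not state this, nor whether a culture was shared between times. The members and the 4 other lists were chosen with earlier results of these data known. The text names all members and 6 regulators, up to 4 genes called each way from 3 pathway lists at 30 min, and the 3 genes of most similar pattern for INO1, ITR1 and OLE1; ACB1 and FAA4 were named after their values were seen. ELO2 was not analysed here, since its platform name, FEN1, is shared with another gene. Names follow the R64 table. Alternatives were no background correction, an offset of 0, median centring, scaling on external control spots, the authors' ratios, no dye term, array weights, a filter on dim probes and leaving out each array.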

Additional observations from a re-analysis of the deposited data

Results flagged for a closer look

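Each of these genes changed differently from 0 min in Mot1-aa and in WT-aa, by the interaction term of the limma fit (adjusted p under 0.05 over all genes). Among the members at 20 min the differences, Mot1-aa minus WT-aa on the log2 scale, were 1.23 for OLE1, 0.70 for PSD1, 0.70 for INO1, 0.61 for ACC1 and 0.42 for ITR1. At 30 min they were 1.63 for OLE1, 1.11 for INO1, 0.84 for ACC1, 0.70 for PSD1, 0.54 for ITR1 and 0.40 for FAS2. Of the regulators, MGA2 had 0.48 and SCS2 had -0.57 at 30 min. In the pathway lists at 30 min, the values were 1.34 for FAA2, 1.11 for ACS2, 0.94 for ELO1, 0.82 for FAT1, 0.60 for TGL5, 0.58 for DGK1, -0.36 for HFA1 and -0.47 for TGL3. Not all of these calls were equally stable. Of 24 settings, FAA2 kept its 30 min call in 23, TGL5 in 12, FAS2, MGA2 and SCS2 in 10 each, HFA1 in 9 and TGL3 in 7.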

How the results depend on the processing

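The count of members called at 30 min was 9 in Mot1-aa (8 to 9 with each array left out in turn) and 6 for the depletion effect (5 to 6). The same ranges were 1 to 7 for Mot1-aa at 10 min, 8 to 9 at 20 min, 0 to 1 for WT-aa at 30 min, 1 to 8 for the depletion effect at 20 min and 0 to 1 for Mot1-aa at 30 against 20 min. Without the replicate block, which is the dye term, the counts were 0 for Mot1-aa at 10 min, 1 and 3 for the depletion effect at 20 and 30 min, and 0 for 30 against 20 min. Scaling on the external control spots left 0 members for Mot1-aa at 10 min, for the depletion effect at 20 and at 30 min, and for 30 against 20 min. These spots lay close to the background, at 1.15 to 1.50 times it, which limits what this setting can show. The authors' ratios gave 3 for Mot1-aa at 10 min and 3 for the depletion effect at 20 min. Array weights gave 0 for Mot1-aa at 10 min and 2 for 30 against 20 min, and median centring gave 0 for 30 against 20 min. The cause was not tested. No result changed its direction while called. OLE1, INO1 and ACC1 kept the depletion call at 30 min in 23 of 24 settings, ITR1 in 22, PSD1 in 21 and FAS2 in 10; OLE1, INO1 and ACC1 lost it only with the external control spots.

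Over all genes, the counts for the depletion effect at 20 and 30 min, 430 and 1120, were 244 and 696 with median centring (94.3% higher at 20 min, against 87.2%), 0 and 4 with the external control spots and 86 and 463 without the replicate block (100% and 76.2% higher). Array weights gave 709 at 20 min. For Mot1-aa at 10, 20 and 30 min, 184, 1270 and 2225 became 5, 616 and 786 with the external control spots and 44, 689 and 1472 without the block, and at 10 min 120 with median centring and 2 with array weights. For WT-aa, 22, 6 and 21 became 0, 0 and 0 with the external control spots, 9, 3 and 9 without the block, 7 and 10 at 10 and 30 min with median centring, 68 and 38 at 10 and 20 min with array weights, and 11 at 20 min with the authors' ratios. The strain difference at 0 min went from 143 to 55 without the block and 4 with the external control spots, whose median over all genes was -0.61. For 30 against 20 min, 7 became 4 with an offset of 0, 2 with median centring, 0 with the external control spots, 16 with the authors' ratios, 0 without the block and 142 with array weights. With each array left out, the depletion effect called 0 to 18, 102 to 827 and 536 to 2008 genes at 10, 20 and 30 min. Precision is limited by having 2 arrays a group, and the size for INO1 also by its low signal.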
